A study of Glycine max with 12 samples.

Results

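In soybean (Glycine max) leaves, 75 of the 39811 genes listed in the deposited table had a lower transcript level at high manganese (Mn) in young leaves while their mean level in old leaves stayed within a set window. Old and young leaves had been sampled from plants that were moved, when the fifth leaf appeared, to nutrient solution holding either 5 µM Mn (normal) or 100 µM Mn (high), supplied as MnSO4. There were 3 libraries in each of the 4 groups, named here old 5 µM, old 100 µM, young 5 µM and young 100 µM. All 4 groups were the same species, and the labels give no genotype and no number of plants per library. Nor do they say whether a replicate was a separate plant. The p-values thus set differences between groups against the spread of these libraries within groups, which may be partly technical variation. Every sample is labelled as leaf, although the extraction protocol in the labels names nodules. The gene IDs of the table (all ending in Wm82.a2.v1) are not paired with gene names in the files, and 0 of 39811 matched the RefSeq gene table used here, so no function is given for any member, and neither the leaf label nor lists of pathway and cell type markers could be looked up.

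Mn is an essential micronutrient of plants. It forms part of the cluster that splits water in photosystem II and serves as a cofactor of several enzymes, and in excess it is toxic to leaves. Mn moves poorly out of leaves through the phloem, so leaves of different age on a plant can hold different amounts of it. The comparison drawn here is between the Mn response of young leaves and that of old leaves.

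Members were chosen from the measured levels themselves. The level was FPKM (the fragments of a gene divided by its length and by the depth of the library), and R denotes log2((mean FPKM at 100 µM + 1)/(mean FPKM at 5 µM + 1)) for a leaf age. A member had R of -1 or lower in young leaves, R between -0.3 and 1 in old leaves, a mean FPKM of at least 3 in young leaves at 5 µM, and no young 100 µM value as high as any young 5 µM value (10.7% of all genes tested meet this last condition). The Mn responses in both leaf ages and their difference are therefore how the genes were found, and their values below are a description. In all, 551 genes met the young-leaf conditions. Of these, 366 had R of -1 or lower in old leaves too, 109 lay between -1 and -0.3 there, 75 were the members, and 1 gene lay above 1. Members were thus the upper edge of a continuous range of old-leaf responses rather than a group set apart by a gap.

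**Figure D1:**
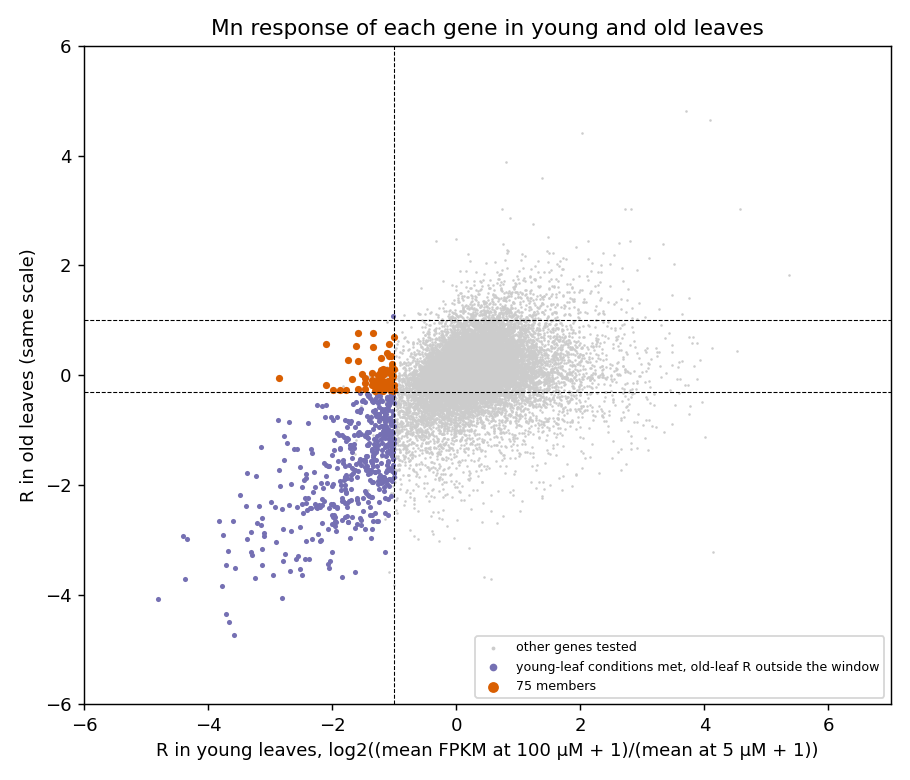
R in young leaves (horizontal axis, log2 scale) against R in old leaves (vertical axis, log2 scale) for every gene tested, each point 1 gene. The 75 members (orange) join without a gap the genes below them that met the same young-leaf conditions (purple), and dashed lines mark the limits of -1, -0.3 and 1.

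At the young-leaf limit the 3 members nearest inside had R of -1.0, -1.005 and -1.007, and the 3 genes nearest outside had -0.997, -0.997 and -0.993. At the lower old-leaf limit the nearest inside had -0.298, -0.297 and -0.296 and the nearest outside -0.305, -0.322 and -0.324. The upper limit was approached less closely, by members at 0.77, 0.767 and 0.702, with the gene outside at 1.07. Within 0.1 of the young-leaf limit lay 20 members inside and 32 genes outside, and within 0.1 of the lower old-leaf limit 21 members inside and 14 genes outside.

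R of the members in young leaves ran from -2.85 to -1.0, with a median of -1.22, and mean FPKM at 5 µM was 2.04 to 60.2 times that at 100 µM, with a median ratio of 2.83. Most lay near the limit, with 34 members above -1.2, 28 between -1.5 and -1.2 and 13 below -1.5. Levels were moderate. Mean FPKM in young leaves at 5 µM had a median of 8.44 (3.08 to 107), and at 100 µM a median of 3.15 (0.117 to 51.3), with 9 members below 1. Young leaves at 100 µM held a median of 114 fragments per member and library, and 1 member had a mean below 10. In bulk leaf tissue, fewer cells that express a gene and less RNA per cell cannot be told apart.

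The rule placed the members opposite in sign to the median R of all genes tested in young leaves, and that median depended on scaling. Over the 28267 genes that passed the expression filter (3 or more of the 12 libraries with an FPKM of 1 or higher), the median R was 0.27 in young leaves and 0.07 in old leaves. After rescaling the libraries by median-of-ratios factors these medians were -0.01 and -0.01, and the members' R in young leaves then ran from -3.03 to -1.24, with a median of -1.51. In old leaves 14 members then lay below -0.3, outside the window. All 75 members passed the expression filter. In young leaves 71 of the 75 were called lower in a limma fit over all genes (adjusted p below 0.05), where 5.58% of all genes were called lower. This comparison chose the members, so nothing is read from that count. The 4 members without a call had R of -1.36, -1.31, -1.03 and -1.01.

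The member with the lowest R was Glyma.16G003500.Wm82.a2.v1, whose ID places it on chromosome 16. Its FPKM in young leaves was 9.62, 7.40 and 4.20 in the 3 libraries at 5 µM and 0.105, 0.0495 and 0.198 at 100 µM. All young 5 µM values were thus far above the rest, and the young 100 µM libraries held a mean of 2.33 fragments of it against 136 at 5 µM. In old leaves it was listed at 0, 0.1 and 0 at 5 µM and at 0 in all 3 libraries at 100 µM. A count of 0 in those libraries allows up to 3 fragments, or an FPKM of 0.151 to 0.174 (counting error only), so no old-leaf response was detectable. Its R was -2.85 in young leaves, and -5.04 with a pseudocount of 0.1 or -1.24 with 5 in place of 1.

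Glyma.05G216000.Wm82.a2.v1, on chromosome 5, had the second lowest R among members with a mean of at least 5 and was well expressed in both leaf ages. In young leaves its FPKM was 43.5, 55.1 and 57.1 at 5 µM and 10.4, 11.4 and 12.2 at 100 µM, an R of -2.10. The young 5 µM and young 100 µM values lay far apart relative to their spread, with means of 51.9 ± 7.34 and 11.3 ± 0.869 (SD, n = 3). In old leaves it was 92.8, 94.6 and 61.8 at 5 µM and 57.6, 57.1 and 105 at 100 µM, an R of -0.18 with overlapping groups.

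**Figure D2:**
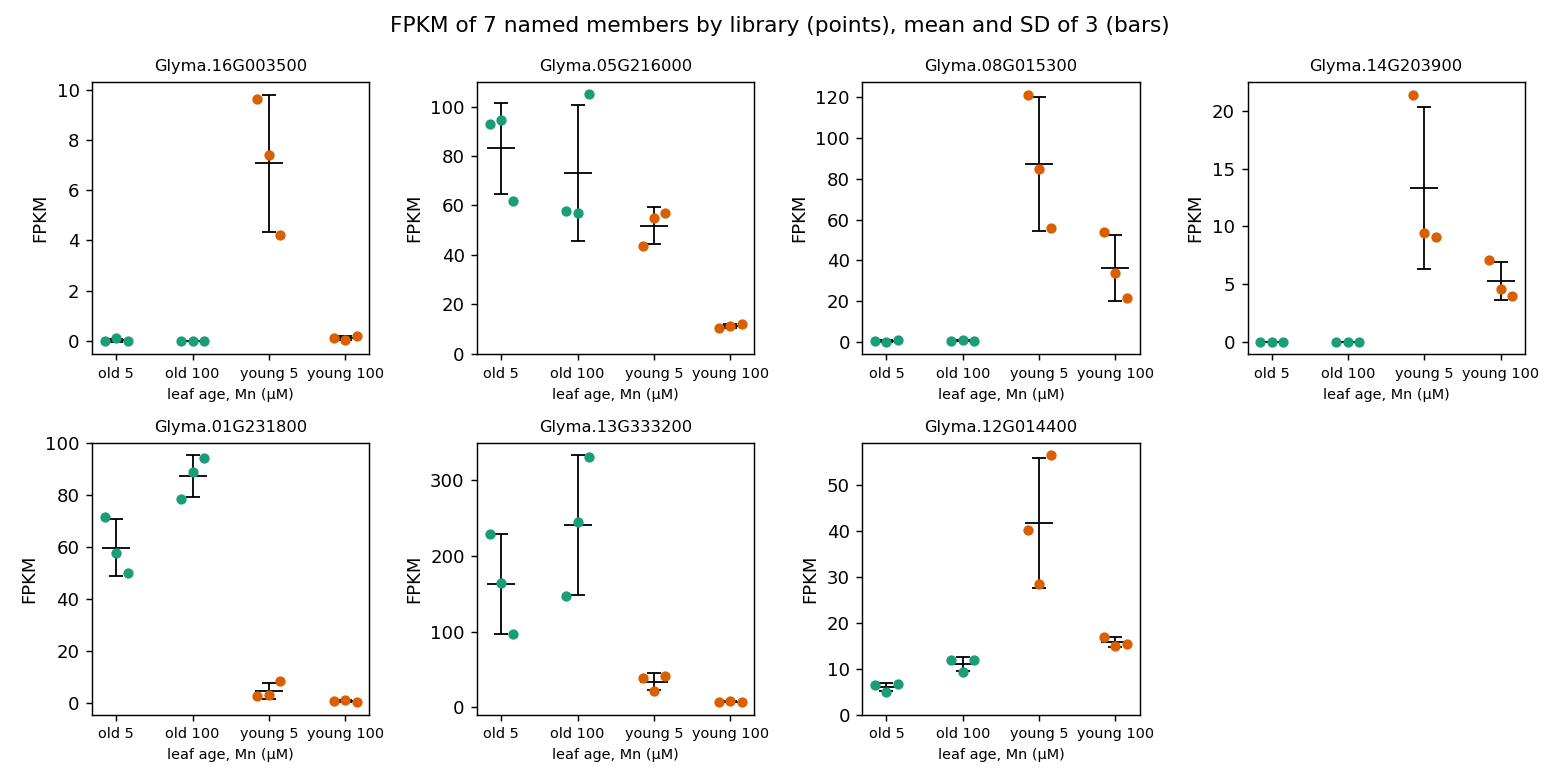
FPKM (vertical axis, linear, from 0) of the 7 members named in the text in the 4 groups of leaf age and Mn (horizontal axis). Points are libraries, and bars are the mean and SD of 3. In each panel the 3 young 100 µM points lie below the 3 young 5 µM points, which the choice of members required, while old-leaf levels range from 0 to 331.

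The level in old leaves decided what the old-leaf window could detect. With 1 added to each mean, a gene with an old-leaf mean below 0.231 at 5 µM cannot reach an R below -0.3 even if it is at 0 at 100 µM, and an R of -1 needs a mean of at least 1. Of the 75 members, 13 (17.3%) had an old-leaf mean below 0.231 at 5 µM, and so met the lower limit whatever happened in old leaves. A further 12 members (16%) lay between 0.231 and 1. The remaining 50 (66.7%) had a mean of at least 1. For the 25 members below 1, the data do not show that the lower level was particular to young leaves.

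The 13 members that were nearly silent in old leaves had a median FPKM of 0.124 there at 5 µM and 0.0253 at 100 µM, and 5.86 and 1.74 in young leaves. Fragments summed over the 3 old 5 µM libraries were 0 to 30 per gene, with a median of 9.0. Of these members 2 had no fragment in any of the 6 old-leaf libraries. In plain ratios of means, with nothing added, 8 of the 75 members were also at 0.5 times their old-leaf level or less at 100 µM. These were 5 of these 13 and 3 of the next 12, and none of the 50 with a mean of at least 1. Of the 8, which were picked for a low old-leaf ratio, 2 had old-leaf values at 100 µM wholly below those at 5 µM. Over all genes tested 9.06% did so. These 2 held 26 and 8 fragments summed over the old 5 µM libraries, and 5 and 1 over the old 100 µM libraries, so nothing is read from them. Among all 25 members with an old-leaf mean below 1, 3 had such values. The member not among the 8 had a ratio above 0.5, with a mean of 37.3 fragments per old 5 µM library and 23.0 per old 100 µM library.

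**Figure D3:**
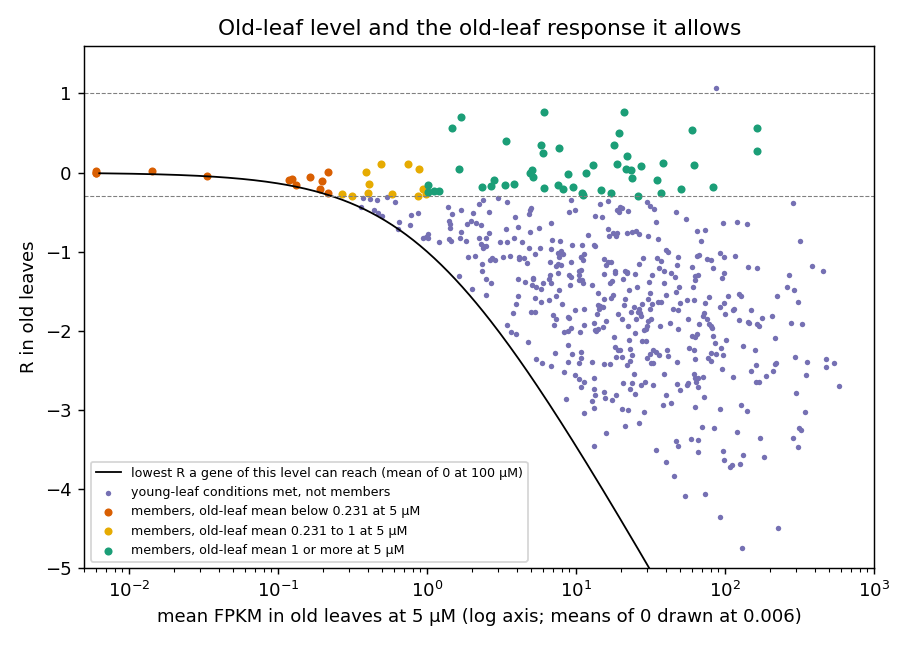
R in old leaves (vertical axis, log2 scale) against mean FPKM in old leaves at 5 µM (horizontal axis, log scale) for the genes that met the young-leaf conditions. The black curve is the lowest R a gene of that level can have. The 13 members at the left, below 0.231, lie where the curve is above the lower dashed limit of -0.3, and the 50 green members lie above the curve, where an R below -0.3 was possible.

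For the 50 members with an old-leaf mean of at least 1 an R of -1 in old leaves was possible, and it was the choice of members that left such genes out. Their median FPKM was 10.3 at 5 µM and 9.41 at 100 µM in old leaves, and 11.5 and 4.30 in young leaves. R in old leaves ran from -0.30 to 0.77 with a median of -0.01, and was above 0 for 23 members and below 0 for 27. Their R in young leaves ran from -2.10 to -1.01, with a median of -1.21.

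Over all 75 members the old-leaf values at 100 µM lay wholly above those at 5 µM for 3 members and wholly below for 5, where 20.3% and 9.06% of all genes did so. In the limma fit 1 member was called for Mn in old leaves, higher at 100 µM, and 0 were called lower, where 10.8% of all genes were called higher and 5.31% lower. At an unadjusted limma p of 0.05, 0 members were lower in old leaves, where 9.58% of all genes were. Voom on the recovered fragments called 0 members lower and 2 higher, where it called 5.19% and 10.9% of all genes. The window on R, with its lower limit of -0.3, largely fixes these counts, and nothing is read from them. The called member, Glyma.12G014400.Wm82.a2.v1, is named because of that call, after its values were seen. Its old-leaf FPKM was 6.55, 5.03 and 6.63 at 5 µM and 11.8, 9.27 and 12 at 100 µM. In young leaves it was 40.3, 28.5 and 56.6 at 5 µM and 17, 15 and 15.5 at 100 µM. The groups did not overlap in either leaf age, and the order of the Mn levels was opposite, with R of 0.77 in old and -1.35 in young leaves. The old-leaf call was absent under 6 of 21 alternatives, which include median-of-ratios rescaling (log2 change 0.66, where the fit as reported gave 0.77) and leaving out replicate 2 of old 5 µM, or replicate 1 or 3 of old 100 µM.

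The difference between the 2 responses (R young minus R old) ran from -2.81 to -0.72 over the members, with a median of -1.2, against a median of 0.16 over all genes tested. In the limma fit 23 of the 75 were called for a more negative response in young leaves, where 0.916% of all genes were called in that direction. The rule fixed this direction, so the count is a description, and 52 members chosen for a fall in young leaves alone did not pass the test of that difference. Of the 23, 15 were among the 50 members with an old-leaf mean of at least 1. The other calls fell on members below that level, for which the added 1 limits the old-leaf change. The count moved when single libraries were left out: it was 2 without replicate 3 of young 100 µM, 5 without replicate 3 and 9 without replicate 1 of young 5 µM, and 9 and 10 without replicates 2 and 3 of old 100 µM. It was 32, 29 and 25 without replicates 1, 2 and 3 of old 5 µM, and 16 to 19 without each of the others. It was 40 after median-of-ratios rescaling and 53 after quantile normalization. The share of all genes called under these settings is not given, and the cause of the changes was not tested.

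Replicates of the members were further apart in young leaves than those of all genes tested. The rule chose the members from these same libraries, and genes of like level or like fall were not compared. The spread is therefore a description. The median SD of log2(FPKM + 1) over members was 0.353 in young 5 µM and 0.311 in young 100 µM, against 0.142 and 0.136 over all genes tested. In old leaves it was 0.293 at 5 µM and 0.196 at 100 µM, against 0.266 and 0.141. In young 5 µM, libraries lay apart in both directions. Replicate 3 was the highest of its group for 46 of the 75 members, with a median deviation of 0.25 from the group mean, where all genes had -0.06. Replicate 1 was the lowest for 37 members, with a median deviation of -0.20 against 0.01. Replicate 3 of young 100 µM was the lowest of its group for 40 members, with a median deviation of -0.15 against -0.01. Median FPKM over the members was 7.27, 8.36 and 9.63 in the young 5 µM libraries and 3.53, 3.09 and 2.62 in the young 100 µM libraries, and the rule requires that the Mn levels do not overlap. Without replicate 3 of young 5 µM the rule chose 66 genes, 50 of them among the 75, and without replicate 1 it chose 91, of which 67 were members. Without replicate 3 of young 100 µM it chose 65, of which 57 were members.

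**Figure D4:**
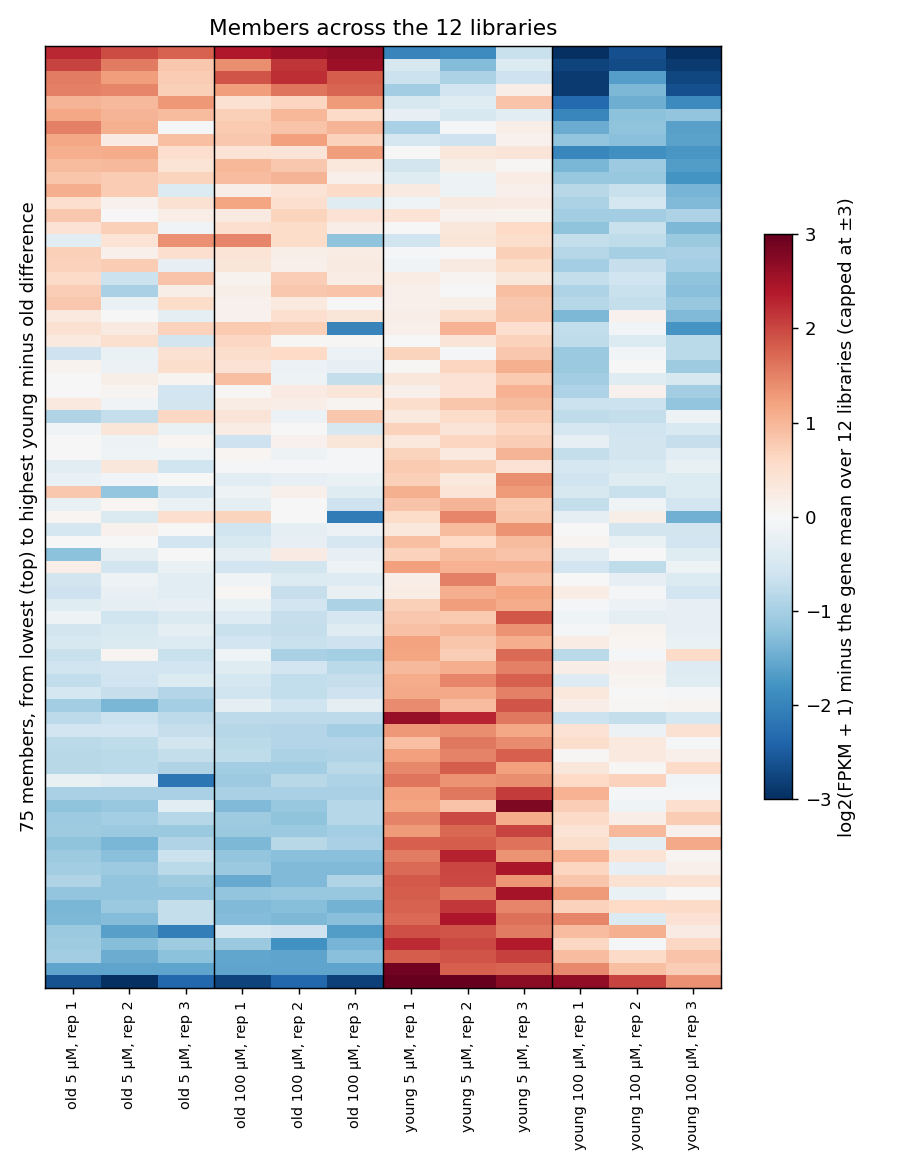
Level of each of the 75 members (rows) in the 12 libraries (columns), as log2(FPKM + 1) minus the mean of the gene over 12 libraries, with colours capped at 3 in both directions. Rows run from the most old-leaf to the most young-leaf member. In the top rows young 100 µM is the lowest group, and in the bottom rows young 5 µM is the highest group with young 100 µM between it and the old leaves.

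A comparison of leaf ages averaged over both Mn levels is a separate contrast from the Mn response within each leaf age, but it is not free of the rule. The young-leaf average includes the lowered 100 µM level, so for every member the averaged difference lies below the difference at 5 µM. The floor on young leaves at 5 µM favours genes with high young-leaf levels, and the old-leaf window admits every gene that is nearly silent in old leaves. In this comparison 38 members (50.7%) were higher in young leaves and 19 (25.3%) lower, and 18 did not pass. The shares over all genes were 24% higher and 30.7% lower, and over the 18179 genes that also had a young 5 µM mean of at least 3 they were 24.6% and 29.6%. All 25 members with an old-leaf mean below 1 at 5 µM were called higher in young leaves, as were 100% of the 557 tested genes with that old-leaf level and a young 5 µM mean of at least 3, so this count says nothing about the members. Among the other 50, 13 (26.0%) were higher and 19 (38.0%) lower, and 18 did not pass. Of the 17622 tested genes cut in the same way (young 5 µM mean of at least 3, old 5 µM mean of at least 1), 22.2% were higher and 30.6% lower, shares near those of the 50 members.

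Glyma.08G015300.Wm82.a2.v1, on chromosome 8, had the largest young minus old difference on the log2(FPKM + 1) scale. Its FPKM was 0.403, 0.0781 and 0.677 in old leaves at 5 µM and 0.251, 0.692 and 0.238 at 100 µM. In young leaves it was 121, 84.8 and 55.7 at 5 µM and 53.7, 33.9 and 21.5 at 100 µM, so every young library was far above every old one. The difference averaged over Mn was 5.31 on that scale (SE 0.24), and 7.33 with voom on the recovered fragments. It is given without a test, since the gene passed the filter and the floor through young leaves and was named for this difference. The lowest young 5 µM value, 55.7, stood just above the highest young 100 µM value, 53.7.

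Glyma.14G203900.Wm82.a2.v1, on chromosome 14, was at 0 in all 6 old-leaf libraries, which allows an FPKM of up to 0.104 to 0.120. In young leaves it was 21.5, 9.44 and 9.11 at 5 µM and 7.11, 4.58 and 4 at 100 µM. It thus entered the set through young leaves, and its leaf age difference is given without a test. The fitted log2 difference of 3.17 (SE 0.19), second among the members, depends on the pseudocount and is no bound on the fold. With voom on the recovered fragments it was 8.71, above the 7.33 of Glyma.08G015300.Wm82.a2.v1, so the order of these members depends on the scale.

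In the other direction, Glyma.01G231800.Wm82.a2.v1, on chromosome 1, was mainly an old-leaf transcript and had the most negative leaf age difference, for which it was named. Its FPKM was 71.8, 57.8 and 50.3 in old leaves at 5 µM and 78.6, 88.9 and 94.4 at 100 µM. Young leaves had 2.84, 3.06 and 8.47 at 5 µM and 0.820, 1.42 and 0.447 at 100 µM. The old-leaf values at 100 µM lay above all of those at 5 µM, while in young leaves the order was the opposite. The age difference was -4.54 (SE 0.22). In young 5 µM the library with 8.47 was replicate 3.

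Glyma.13G333200.Wm82.a2.v1, on chromosome 13, had the highest old-leaf level of the members at 100 µM. It stood at 229, 164 and 97.1 in old leaves at 5 µM and at 147, 245 and 331 at 100 µM, with overlapping groups. In young leaves it was 39.3, 21.7 and 41.2 at 5 µM and 7.20, 7.77 and 6.64 at 100 µM, an R of -2.10. The age difference was -3.50 (SE 0.25), and it too is given as a description.

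Because members differed in leaf age preference, high Mn left them in different positions relative to old leaves. At 5 µM the young-leaf mean was above the old-leaf mean for 55 members, and at 100 µM for 34. The other 21 of these 55 crossed to below the old-leaf mean at 100 µM. The remaining 20 members were below the old-leaf mean at both Mn levels, and the rule moves any such gene farther below at 100 µM. Among the 55, the distance between leaf ages, as a difference of group means of log2(FPKM + 1), was smaller at 100 µM for 46. The median young minus old difference over the 75 members was 1.01 at 5 µM and -0.15 at 100 µM. That members shifted downward relative to old leaves is fixed by the rule, so these positions are a description and were not tested.

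**Figure D5:**
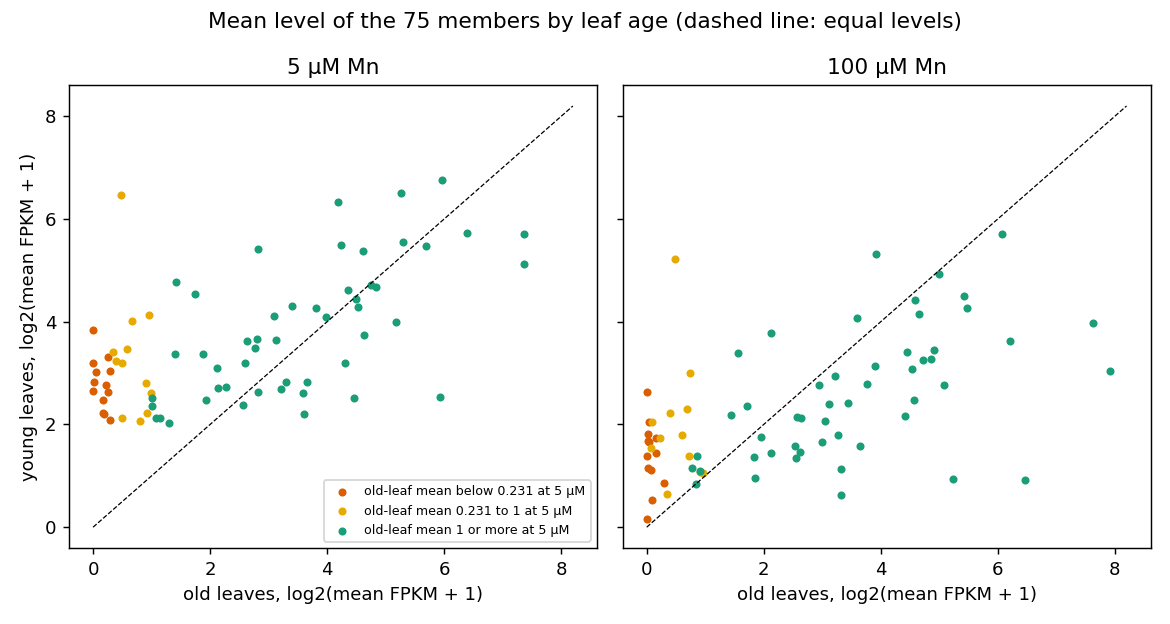
Mean level of each member in old leaves (horizontal axis) and young leaves (vertical axis), both as log2(mean FPKM + 1), at 5 µM (left) and 100 µM Mn (right), coloured by the old-leaf mean at 5 µM. Points above the dashed line are higher in young leaves, which holds for 55 members at 5 µM and 34 at 100 µM.

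Other genes met the same young-leaf conditions but had a lower R in old leaves. The 109 with R between -1 and -0.3 there were close to the members, with a median FPKM at 5 µM of 4.83 in old and 12.8 in young leaves, against 3.81 and 8.44 for the members. In the comparison of leaf ages averaged over Mn, 50.5% of the 109 were called higher in young leaves and 18.3% lower, beside 50.7% and 25.3% of the members. A share of this size is thus not particular to the members. The members' share includes the 25 with an old-leaf mean below 1, all called higher, and the 109 were not split by old-leaf level. The 366 genes with R of -1 or lower in old leaves had a median FPKM at 5 µM of 28.9 in old leaves and 30.0 in young ones, against 10.3 and 11.5 for the 50 members with an old-leaf mean of at least 1. Such an R needs an old-leaf mean of at least 1, so low old-leaf genes cannot be among the 366, and part of this difference in level is built in. Their R in young leaves had a median of -1.64. For leaf age, 23.5% of the 366 passed as higher in young leaves and 16.7% as lower, beside 26.0% and 38.0% of those 50 members. A fall in young leaves alone lowers the averaged difference of each member, whereas in the 366 the fall in old leaves offsets this at least in part. Part of the difference in these shares is thus built in too, and how much was not tested. These sets were cut from the same measurements, so these values describe them and are not tested against each other.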

How the data were processed

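The authors deposited 1 table of FPKM values for 39811 genes and 12 libraries. HISAT2 2.1.0, DESeq2 1.6.3 and Bowtie2 2.2.3 are named in the submitters' processing notes, which state neither what each did nor in which order. The counting rule is not given in the sources used here, so values of near-identical gene copies, frequent in soybean, are uncertain. Whole fragment numbers and library totals were solved from the FPKM values. All 39811 genes came within 0.02 of whole numbers, and totals were 17774122 to 21070730, so that 1 fragment in 1 kb is an FPKM of 0.0475 to 0.0563.

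Groups and replicates came from the sample titles. The 28267 genes with an FPKM of 1 or higher in 3 or more libraries were fitted as log2(FPKM + 1) in limma 3.58.1 (R 4.3.3) with 4 group means and a variance trend. Fold changes on that scale understate changes of low genes. P-values are 2-sided and Benjamini-Hochberg adjusted over all genes tested, with calls below 0.05. The model gives a gene the same variance in all groups.

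Members, lists and tests were chosen with earlier results of these data known. Genes were named by extreme R in young leaves and extreme leaf age difference, with at most 2 IDs per direction because no table pairs IDs with names, plus 1 member named after its values were seen. Alternatives were other pseudocounts (0.1 and 5), filters, scalings, floors, variance models, a replicate term and leaving out each library.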

Additional observations from a re-analysis of the deposited data

Results flagged for a closer look

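The limma test of the difference itself called 23 of the 75 members for a more negative Mn response in young than in old leaves. Of these calls, 15 were on members with an old-leaf mean of at least 1 at 5 µM, 3 on members from 0.231 to 1 and 5 on members below 0.231. Below 1, the 1 added to each FPKM limits the old-leaf change. Among those 3, 1 member was at 0.199 times its 5 µM mean in young leaves and 0.184 times in old leaves with nothing added. Over all genes tested, 0.916% were called in that direction. As members were chosen for such a difference, this is a description. The count was 2 to 32 with 1 library left out, the 2 being without replicate 3 of young 100 µM. Among the named members, the difference (young minus old log2 change) was -2.75 for Glyma.16G003500.Wm82.a2.v1, which was at or near 0 in old leaves, and -1.88 for Glyma.05G216000.Wm82.a2.v1. It was -2.61 for Glyma.13G333200.Wm82.a2.v1. For Glyma.01G231800.Wm82.a2.v1 and Glyma.12G014400.Wm82.a2.v1 it was -2.06 in both. Glyma.12G014400.Wm82.a2.v1 kept its call under all 21 alternatives. Where the others lost theirs, the log2 difference kept its sign, which the rule had fixed. For Glyma.16G003500.Wm82.a2.v1 it was -4.86 with voom, the single loss among the 17 alternatives run. That gene had an FPKM of 1 or higher only in the 3 young 5 µM libraries. It was thus not tested with any of them left out, nor under the filter on a mean FPKM of 5. The difference was -1.81 and -1.93 for Glyma.05G216000.Wm82.a2.v1 without replicate 3 of young 5 µM or of young 100 µM. It was -2.56 to -2.35 in 5 losses for Glyma.13G333200.Wm82.a2.v1 and -2.06 to -1.88 in 5 for Glyma.01G231800.Wm82.a2.v1.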

How the results depend on the processing

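The rule chose 75 genes. It chose 77 (55 of them members) with a pseudocount of 0.1, 29 (16 members) with 5, 199 (61 members) after median-of-ratios rescaling, 177 (62 members) after quantile normalization and 33 with a floor of 10. Leaving out 1 library gave 65 to 99. Members higher in young leaves numbered 38, and 34 to 39 with 1 library left out. There were 9 when genes were filtered on a mean FPKM of 5, where 39 members were tested, and 13 among members with an old-leaf mean of at least 1, an alternative chosen after seeing the data. Members lower in young leaves numbered 19, and 17 to 20 under every alternative run. Mn calls in young leaves were 71, 50 to 72 with 1 library left out and 35 under that filter. The 23 calls for the difference between leaf ages were 15 with a pseudocount of 0.1, 13 under that filter, 40 after median-of-ratios rescaling, 53 after quantile normalization, 13 with voom on the recovered fragments, and 2 to 32 with 1 library left out. At the stricter filter 39 members were tested, 37 of them with an old-leaf mean of at least 1. That filter thus changed which members were tested as well as how many. The cause of the changed counts was not tested. No gene-level value reversed in 225 refits or recalculations. The rule fixed the sign of R in young leaves and of the difference between leaf ages. The leaf age values belong to genes named for being extreme, so nothing is read from this. Deviations of same-numbered libraries had correlations from -0.47 to 0.26, over 0.1 in 5 of 18 pairs. Differently numbered libraries were not compared, so these values cannot show whether the numbers pair libraries. With a replicate block, 38 members were higher and 18 lower in young leaves, 69 were called for Mn in young leaves and 20 for the difference. Depth and the 1 added to each mean both limit the old-leaf R of the 25 members with an old-leaf mean below 1 at 5 µM. Fragments summed over the old 5 µM libraries were 0 to 30 for the 13 below 0.231, and 17 to 162 for the 12 from 0.231 to 1.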

Other observations

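By their IDs the members were spread over all 20 chromosomes, with at most 7 on a chromosome. A few lay near each other in ID order. Of the gaps given here only that of 200 lay within the limit planned, and the number of such pairs to be expected was not worked out. On chromosome 14, 3 members had gene numbers 200 and 700 apart, with R in young leaves of -1.26, -1.21 and -1.02, and all 3 had old-leaf means below 1 at 5 µM (0, 0.215 and 0.874). On chromosome 9 a pair 900 apart had R of -1.17 and -1.36 and old-leaf means of 0.0143 and 0.119. A pair 600 apart on chromosome 6 had R of -1.58 and -1.19 but old-leaf means of 37.4 and 0.314. Of 96 tested genes directly beside a member in ID order, 1 (1.04%) had R of -1 or lower in young leaves, where 2.17% of all genes tested did, and their median R was 0.23. Gene lengths solved from the table had a median of 1650 bases over members (511 to 4060) and 1870 over all genes tested.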
